A study of Mus musculus with 6 samples.

Results

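The family of mmu-miR-25, mmu-miR-32, mmu-miR-92a, mmu-miR-92b and mmu-miR-363 was read from 11 of the 1083 mouse-named probes of a microRNA array. Members were taken by name, as every mouse probe of these 5 miRNAs whatever its arm or form: 5 probes carry the plain name, 1 is a star probe and 5 end in -P. A star was read as the minor arm and -P as a probe of the precursor hairpin, neither of which the labels define. The arrays were hybridised with RNA of bone marrow stem and progenitor cells, isolated as lineage-negative and cKit-positive. The cKO group (3 mice) has the labelled genotype Rprtf/f, Mx1-Cre+, and the Ctrl group (3 littermates) Rprtf/f, Mx1-Cre-. All 6 were C57BL/6 females of 10 weeks that carried the floxed Raptor alleles and received 7 intraperitoneal injections of 400 µg of the double-stranded RNA pIpC, with cells taken 10 days after the last. The Mx1 promoter answers to interferon, so deletion is not limited to one blood cell type, and no probe used here measured the deletion.

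Raptor is the scaffold of the kinase complex mTORC1, which couples growth factors and amino acids to protein synthesis and growth. A miRNA pairs with its targets mainly through its seed, so miRNAs with the same seed can repress the same messenger RNAs. The family is known for repressing Bcl2l11, which encodes the death-promoting protein Bim, and several of its members are made from the growth-associated cluster of miR-17 and miR-92a and its relatives. In blood formation the cluster of miR-17 and miR-92a is known for keeping B cell progenitors alive.

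The mature RNAs are printed below to show what the members share and where they part. They are RefSeq sequences (GRCm38.p6), 5′ to 3′, with the seed (bases 2 to 8) in capitals. The sequences of the array's own probes were not used here, and each plain probe name was read as the arm that RefSeq now calls 3p, or 5p for miR-32.
miR-25: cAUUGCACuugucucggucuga
miR-92a: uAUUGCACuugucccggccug
miR-92b: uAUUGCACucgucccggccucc
miR-32: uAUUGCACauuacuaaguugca
miR-363: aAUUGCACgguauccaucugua
All 5 share the seed AUUGCAC, which 6 of 1679 mature mouse miRNA names in that table carry (0.357%). The other name, miR-367-3p, is no member here, and its probe gave 0.332 to 0.348 on cKO arrays and 0.355 to 0.373 on Ctrl arrays, under background (defined with the arrays) on all 6. Behind the seed the members fall into close and distant relatives. Compared position by position from the 5′ end, miR-92a and miR-92b were identical at 19 of 21 positions (differences U10C and G21C, miR-92a base first). miR-25 and miR-92a were identical at 18 of 21. miR-32 shared 11 of 21 positions with miR-92a, and miR-363 shared 10 of 21. Signal on the probes of miR-92a, miR-92b and miR-25 may therefore come in part from each other's RNA, and how far was not tested.

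The genes lie at 6 places on 5 chromosomes (GRCm38.p6). Mir25 (chr5:138165321-138165404, minus strand) lies inside the gene Mcm7, with Mir93 and Mir106b, in a cluster of 498 bases. Mir92-1 (chr14:115044427-115044506, plus strand), 1 of the 2 genes for miR-92a, closes the miR-17 cluster of 836 bases and lies inside Mir17hg. Mir92-2 (chrX:52741838-52741928) and Mir363 (chrX:52741693-52741767), both on the minus strand, end the miR-106a cluster of 875 bases. Mir32 (chr4:56895229-56895298, minus strand) lies inside Tmem245, and Mir92b (chr3:89227116-89227198, minus strand) inside no other annotated gene.

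The deposited values are relative intensities on a linear scale, 1 value per probe and array. Background is used here for the 95th percentile of 38 probes of random sequence (0.377 to 0.463 by array). The share of mouse probes above it was 58.4% to 63.8% on cKO arrays and 46.4% to 52.7% on Ctrl arrays. Among 10 stem and progenitor marker probes only miR-130a and miR-99a exceeded it on all 6 arrays, and the probes of miR-125a and miR-125b were under it on all 6. The 10 summed to 5.77 to 6.39 in cKO and 4.66 to 4.84 in Ctrl, of which miR-130a alone rose (2.37-fold), and the other 9 summed to 3.44 to 3.85 in cKO and 3.70 to 3.88 in Ctrl. Among markers of other cell types, the myeloid miR-223, which did not pass, stood at 20.7 to 38.2 in cKO and 15.1 to 16.4 in Ctrl. The 4 lymphoid probes summed to 4.76 to 8.30 in cKO and 2.65 to 2.95 in Ctrl. Of these miR-342-3p alone rose, with 2.74 to 6.49 in cKO and 0.917 to 1.16 in Ctrl. miR-342-5p overlapped between the groups (1.01-fold), miR-150 did not pass (1.38-fold), and miR-150* was under background on all 6 arrays. The 3 erythroid probes summed to 1.80 to 2.24 in cKO and 1.77 to 2.76 in Ctrl, and the 9 stromal probes to 4.92 to 6.01 in cKO and 3.92 to 5.00 in Ctrl. The 8 muscle, liver and brain probes summed to 3.01 to 3.30 in cKO and 3.11 to 3.27 in Ctrl. Only 1 erythroid, 2 stromal and 1 of these 8 probes exceeded background on all 6 arrays, so these sums hold much background signal. The part of these markers in the results below was not tested. Averaged over 6 snoRNA and GAPDH probes, cKO arrays stood 0.58 higher on the log2 scale (exact permutation p = 0.1). This is the smallest p that 3 arrays against 3 allow. For random sequence the difference was -0.04 (exact permutation p = 0.5). The snoRNA and GAPDH probes differed among themselves, from -0.0072 (U44R) to 1.17 (U48R), and only for U48R did the groups lie apart. U44L, U48L and the GAPDH probes gave 0.41 to 0.82 with overlap. U44R exceeded background on 1 of 3 cKO arrays and U48R on 3 of 3, and both on 0 of 3 Ctrl arrays.

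Of the 5 plain probes of the family, those of miR-92b, miR-25, miR-32 and miR-92a rose in cKO cells, by 2.47- to 2.99-fold, and that of miR-363 did not pass the test. Over the whole array 6.46% of mouse probes rose and 0.369% fell (limma, Benjamini-Hochberg adjusted p under 0.05 over all 1083). Of the 11 family probes 4 were called higher and none lower, 7 did not pass, and 5 had an unadjusted p under 0.05, as did 181 of all 1083 mouse probes. The median log2 difference of the 11 was 0.21, against 0.041 over all mouse probes. All 4 that rose had every cKO array above every Ctrl array, as did 15.8% of mouse probes. Of the 271 plain-named probes above background on all 6 arrays 15.5% rose, with a median log2 difference of 0.29, and the 4 family probes among them all rose. In RNA from a mixed population, a change in the cells present and a change in RNA per cell cannot be told apart.

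**Figure D1:**
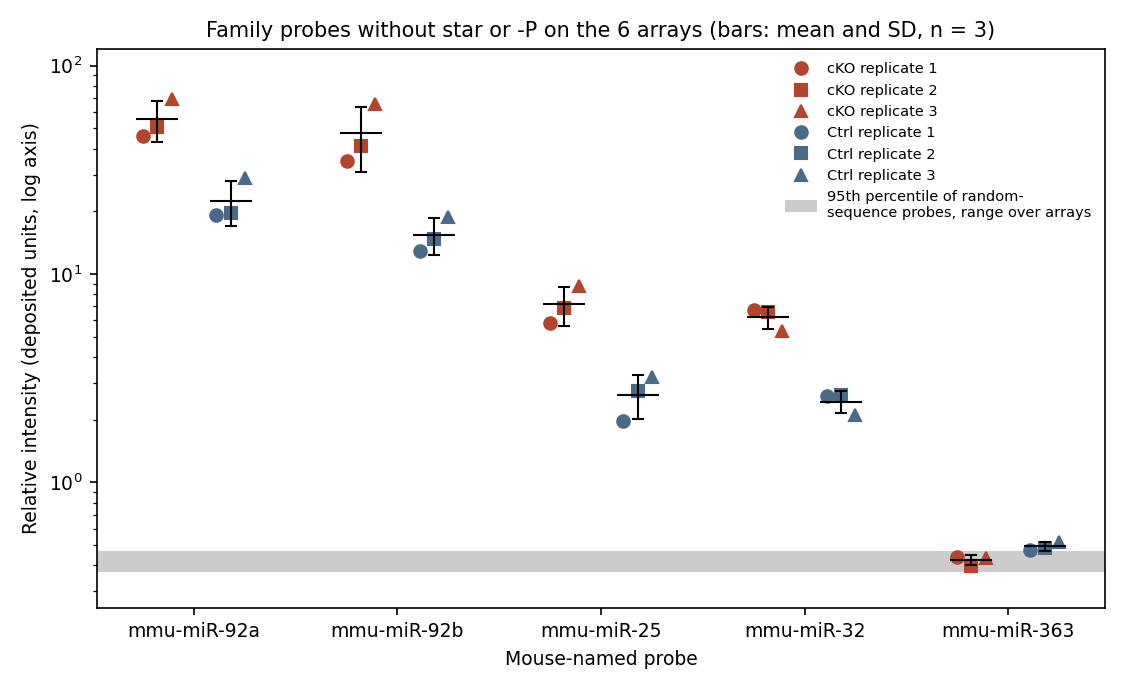
Relative intensity (log axis) of the 5 plain-named family probes on each array, with cKO (red) left of Ctrl (blue), marker shapes for replicates, and bars for mean and SD (n = 3). For miR-92a, miR-92b, miR-25 and miR-32 every cKO array lies above every Ctrl array, while the miR-363 points lie in or just above the grey band of the random-sequence probes (0.377 to 0.463).

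miR-92a, a member of both the miR-17 and the miR-106a cluster, gave relative intensities of 46.1, 51.1 and 69.6 on cKO arrays 1 to 3 and 19.1, 19.5 and 29.0 on Ctrl arrays 1 to 3. The groups did not overlap, and the lowest cKO array was 1.59 times the highest Ctrl array. The cKO arrays averaged 55.6 ± 12.4 and the Ctrl arrays 22.5 ± 5.57 (SD, n = 3 each). In limma's fit this was 2.47-fold, or 1.31 ± 0.26 (SE) on the log2 scale, with an adjusted p of 0.00621. The 69.6 of cKO array 3 is the highest value of that array, shared by 7 probes. It was read here as the limit of the array, so the true level there may be higher. Without that array the difference was 1.13 (limma adjusted p = 0.0026), and without Ctrl replicate 1 the call was lost (1.20, limma adjusted p = 0.0567).

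miR-92b, which has a gene of its own, gave 34.9, 41.2 and 65.8 on the cKO arrays and 12.9, 14.7 and 18.8 on the Ctrl arrays. Every cKO array was at least 1.86 times the highest Ctrl array. The cKO arrays averaged 47.3 ± 16.3 and the Ctrl arrays 15.5 ± 3.04 (SD, n = 3 each). In limma's fit this was 2.99-fold, or 1.58 ± 0.29 (SE) on the log2 scale, with an adjusted p of 0.00387. Its call held in all 6 fits that left out 1 array, with log2 differences of 1.31 to 1.77. The order among the members did not hold: without cKO replicate 3, miR-32 (1.45) stood above miR-92b (1.31), and miR-92a is bounded by the limit of that array.

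miR-25, made from the cluster inside Mcm7, gave 5.81, 6.86 and 8.80 in cKO and 1.97, 2.73 and 3.21 in Ctrl. The groups again lay apart. The cKO arrays averaged 7.16 ± 1.52 and the Ctrl arrays 2.64 ± 0.627 (SD, n = 3 each). In limma's fit this was 2.73-fold, or 1.45 ± 0.31 (SE) on the log2 scale, with an adjusted p of 0.011. The call was lost without cKO replicate 2 (1.47, limma adjusted p = 0.0611) and without Ctrl replicate 1 (1.25, limma adjusted p = 0.111).

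miR-32, the member least like miR-92a among those that rose, gave 6.72, 6.58 and 5.32 in cKO and 2.60, 2.62 and 2.10 in Ctrl. Every cKO array was at least 2.03 times the highest Ctrl array, the widest gap of the family. The cKO arrays averaged 6.21 ± 0.771 and the Ctrl arrays 2.44 ± 0.294 (SD, n = 3 each). In limma's fit this was 2.54-fold, or 1.34 ± 0.28 (SE) on the log2 scale, with an adjusted p of 0.00957. The call was lost without cKO replicate 2 (1.30, limma adjusted p = 0.0748), without Ctrl replicate 1 (1.39, limma adjusted p = 0.0591) and without Ctrl replicate 3 (1.24, limma adjusted p = 0.0773).

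Array 3 of each group was where miR-92a, miR-92b and miR-25 read highest and miR-32 read lowest. Differences between mice of the same number were, on the log2 scale, 1.27, 1.39 and 1.27 for miR-92a, the last from the array at its limit and so a lower bound. They were 1.37, 1.33 and 1.34 for miR-32, 1.56, 1.33 and 1.45 for miR-25, and 1.44, 1.49 and 1.81 for miR-92b. All 12 lay above 1, that is above a doubling, but these probes had already been called higher from the same arrays, so this count adds no support. The labels do not state that mice of the same number are pairs, and probes read on the same arrays are not separate replicates. How many of all mouse probes did the same was not counted.

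miR-363, the X-linked member, gave 0.440, 0.397 and 0.436 in cKO and 0.475, 0.487 and 0.518 in Ctrl. These values are close to background, which 2 of 3 cKO arrays and 3 of 3 Ctrl arrays exceeded. All 3 cKO arrays lay below all 3 Ctrl arrays, as for 3.88% of mouse probes. The log2 difference of -0.22 ± 0.12 (SE) did not pass (limma adjusted p = 0.401), and its 95% interval of -0.47 to 0.039 contains no rise of the size seen for the other members. Near background a fold change is understated, so this interval describes the signal of the probe and does not bound the change in the RNA.

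Of the 6 star and -P probes none passed limma's test, and 1, miR-92b-P, had an unadjusted p under 0.05. It gave 1.48, 1.33 and 0.763 in cKO and 0.627, 0.839 and 0.476 in Ctrl, so that cKO array 3 overlapped the Ctrl arrays. The log2 difference was 0.86 ± 0.27 (SE, limma, adjusted p = 0.0837), and it passed with the mouse number as a block (limma adjusted p = 0.0121) and without cKO replicate 3 (1.15, limma adjusted p = 0.000429). miR-25-P gave 0.589, 0.555 and 0.515 in cKO and 0.470, 0.449 and 0.516 in Ctrl. Its 1.16-fold difference did not pass (limma adjusted p = 0.501), and its 95% interval of 0.9496- to 1.41-fold lies below that of the plain miR-25 probe, 1.71- to 4.35-fold, a difference that was not itself tested. The low level limits this comparison, since near background a fold change is understated. The hairpins of both genes, from RefSeq, show in capitals the mature arm that such a probe could share with the plain probe.
Mir92b: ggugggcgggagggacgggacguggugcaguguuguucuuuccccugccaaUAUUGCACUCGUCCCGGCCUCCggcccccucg
Mir25: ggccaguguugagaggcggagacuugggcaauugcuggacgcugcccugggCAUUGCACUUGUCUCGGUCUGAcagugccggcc
miR-32-P gave 0.746, 0.541 and 0.889 in cKO and 0.684, 0.660 and 0.590 in Ctrl. Its log2 difference was 0.14 ± 0.19 (SE, limma; adjusted p = 0.853). miR-363-P (0.059), miR-92a* (0.066) and miR-92a-1-P (0.0039) had log2 differences close to 0, and with snoRNA and GAPDH scaling these 3, miR-25-P and miR-32-P all lay below 0. miR-92a-1-P was under background on all 6 arrays, and miR-92a* above it on 1 cKO and 1 Ctrl array.

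Probes designed for the human miRNAs of the same names gave a second reading of the same RNA on the same arrays, and are therefore no independent samples. Of 11 such probes 4 were called higher, 0 lower and 7 neither (limma over 1737 human probes, of which 1.9% rose and 0.115% fell). Those that rose were again miR-92b, miR-25, miR-92a and miR-32. Human miR-92b gave 22.5, 27.0 and 41.4 in cKO and 8.59, 10.8 and 10.4 in Ctrl (2.97-fold, limma adjusted p = 0.0127). Human miR-25 gave 11.2, 13.9 and 19.7 in cKO and 4.94, 5.50 and 6.22 in Ctrl (2.62-fold, limma adjusted p = 0.0362). All 4 had every cKO array above every Ctrl array, as did 11.5% of human probes. Human miR-92a gave 37.2, 42.5 and 69.6 in cKO, the last again at the limit of the array, and 15.9, 18.3 and 25.5 in Ctrl (2.45-fold, limma adjusted p = 0.0382). Human miR-32 gave 3.08, 3.51 and 2.75 in cKO and 1.30, 1.71 and 1.17 in Ctrl (2.26-fold, limma adjusted p = 0.0396). All 4 human calls were lost when cKO replicate 2, or any 1 of the Ctrl arrays, was left out, where 0 passed limma's adjusted test and 4 had an unadjusted p under 0.05. With all 6 arrays 216 of the 1737 human probes had an unadjusted p under 0.05. Human miR-363 gave 0.372, 0.340 and 0.341 in cKO and 0.364, 0.407 and 0.363 in Ctrl and was under background on all 6 arrays. Among the 6 human star probes the brightest, miR-92b*, gave 4.33, 2.55 and 1.22 in cKO and 1.74, 3.12 and 1.39 in Ctrl. Its groups overlapped (log2 difference 0.28 ± 0.45, SE; limma adjusted p = 0.902). In 1 of the 6, miR-92a-1*, all cKO arrays lay below all Ctrl arrays, as for 4.72% of human probes (-0.20, limma adjusted p = 0.543).

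**Figure D2:**
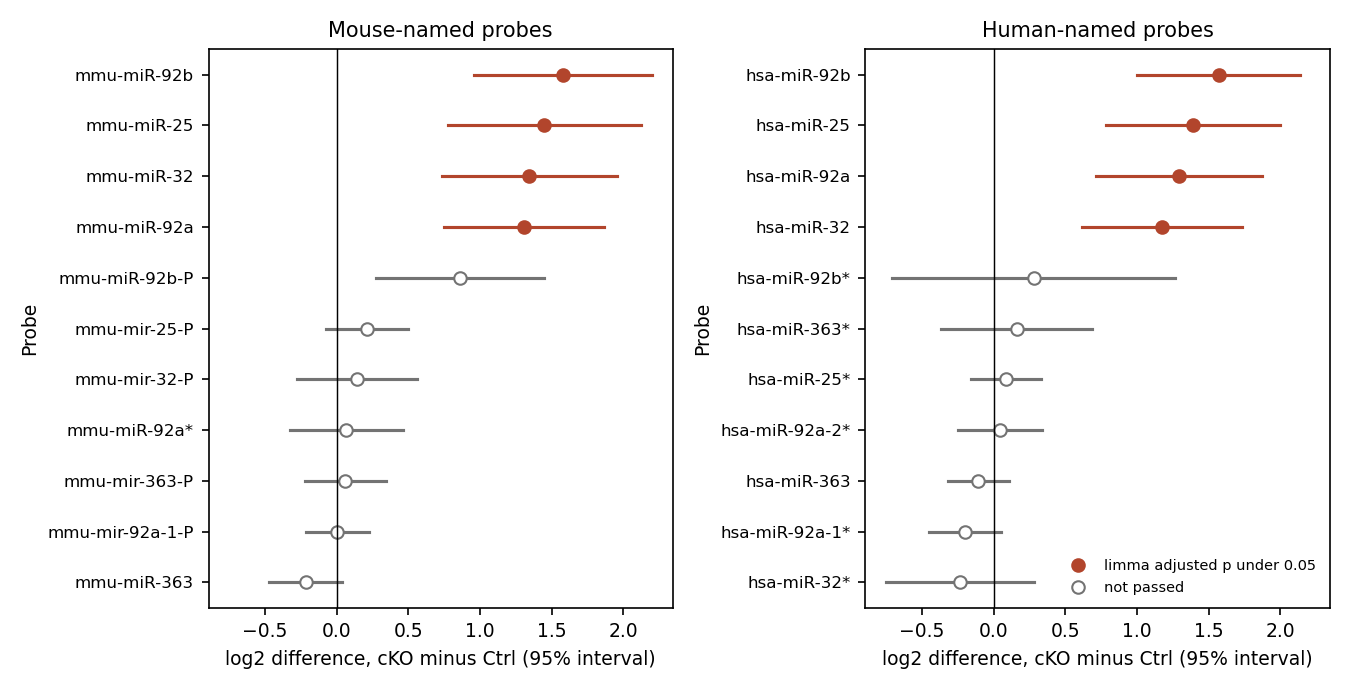
Log2 difference, cKO minus Ctrl, with its 95% interval for the 11 mouse-named and 11 human-named family probes; filled red points passed limma's test. In both sets miR-92b, miR-25, miR-32 and miR-92a lie between 1.18 and 1.58, and the star, -P and miR-363 probes, other than mouse miR-92b-P at 0.86, lie between -0.23 and 0.28.

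Since miR-25, miR-92a and miR-363 are cut from transcripts that carry other miRNAs, their differences were set beside those of 10 plain-named cluster partners. The partners have other seeds, shown by 1 RefSeq sequence of each seed group, with bases 2 to 8 in capitals.
miR-17: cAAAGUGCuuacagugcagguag
miR-18a: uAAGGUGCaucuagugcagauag
miR-19b: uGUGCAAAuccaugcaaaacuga
The seed of miR-17 is shared by miR-20a, miR-20b, miR-93, miR-106a and miR-106b, that of miR-18a by miR-18b, and that of miR-19b by miR-19a. Behind the seed some of these are also close, such as miR-17 with miR-106a and miR-20a, and miR-19a with miR-19b. Their probes may therefore read each other's RNA in part, also across clusters, and how far was not tested. With their star and -P probes the partners have 21 probes, of which 5 were called higher, 0 lower and 16 neither, beside the 6.46% of all mouse probes that rose. Their median log2 difference was 0.064. The 5 that rose all have the miR-17 seed: miR-20a by 1.42, miR-106a by 1.24, miR-17 by 1.24, miR-20b by 1.04 and miR-106b by 0.99 in log2 units, with limma adjusted p = 0.00864, 0.0113, 0.0257, 0.0481 and 0.0389 in that order. None of the 5 passed without cKO replicate 2 or without Ctrl replicate 1, where 0 of the 21 passed limma's adjusted test and 5 had an unadjusted p under 0.05. In these 2 fits 153 and 137 of the 1083 mouse probes had an unadjusted p under 0.05. Of the 21 partner probes 2 passed without Ctrl replicate 2 and 1 without Ctrl replicate 3.

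In the miR-17 cluster, some neighbours of miR-92a passed and others did not. miR-20a gave 4.64, 7.68 and 5.44 in cKO and 2.18, 2.26 and 2.06 in Ctrl. miR-19a gave 0.775, 0.977 and 0.578 in cKO and 0.797, 0.923 and 0.644 in Ctrl, with overlapping groups. Its log2 difference was -0.038 ± 0.22 (SE, limma; adjusted p = 0.969), and 0.064 in scanner units. miR-19b, at 0.770, 0.730 and 1.12 in cKO and 0.604, 0.823 and 0.599 in Ctrl, gave 0.36 ± 0.21 (SE; limma adjusted p = 0.449). miR-18a was under background on all 6 arrays. In the Mcm7 cluster miR-93 gave 1.25, 1.68 and 1.41 in cKO and 0.812, 1.05 and 0.969 in Ctrl. Its groups lay apart, but the difference of 0.61 ± 0.22 (SE) did not pass (limma adjusted p = 0.146). In the X-linked cluster miR-106a gave 1.73, 2.52 and 2.49 in cKO and 0.694, 1.03 and 1.15 in Ctrl, while its neighbour miR-363 stayed near background and miR-18b exceeded background on 1 of 6 arrays.

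**Figure D3:**
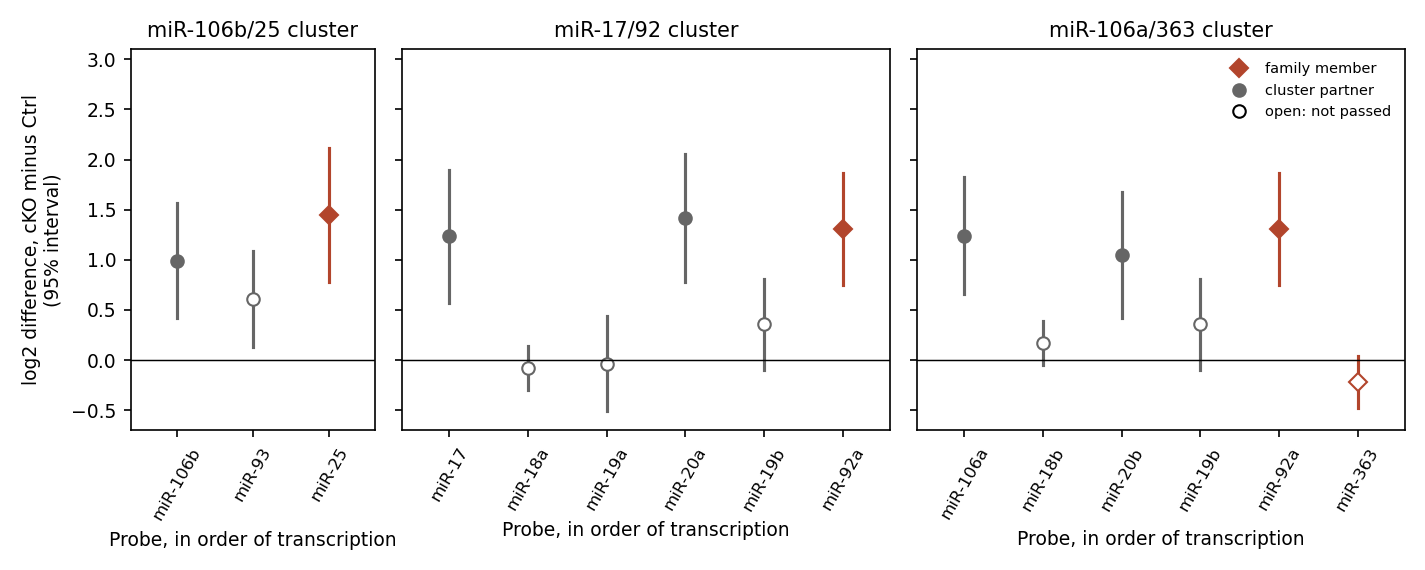
Log2 difference, cKO minus Ctrl, with 95% interval for plain-named mouse probes in the order of their hairpins along the 3 clusters; red diamonds are family members, grey circles are partners, and open symbols did not pass limma's test. miR-92a and miR-19b appear in 2 clusters because each has a gene in both. The 5 partners that passed lie between 0.99 and 1.42, and miR-18a, miR-19a and miR-363 lie below 0.

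Whether 2 probes changed unequally was tested on their log2 ratio within each array, for 10 pairs of members and 14 pairs of a member and a cluster partner. The smallest two-sided exact permutation p is 0.1 here, and the smallest after adjustment over the 24 pairs was 0.171, so no pair could pass. The ratios of the groups did not overlap in 14 of the 24 pairs, against 32.1% of all pairs of plain-named mouse probes. All 10 pairs with miR-363, miR-18a or miR-18b, which were not above background on all 6 arrays, were among them. Of the other 14 pairs 4 were among them, a share no higher than the 32.1% of all pairs, which include pairs near background. With a floor at 1 the count was 3 of 13. The ratios among miR-25, miR-32 and miR-92a overlapped between the groups: the difference in ratio was 0.10 between miR-25 and miR-32, 0.14 between miR-25 and miR-92a and 0.037 between miR-32 and miR-92a (exact permutation p = 0.7, 0.4 and 0.8). The ratio of miR-92a to miR-92b averaged 0.26 ± 0.17 in cKO against 0.53 ± 0.11 in Ctrl (log2, SD, n = 3 each; exact permutation p = 0.1). The ratios were 0.40, 0.31 and 0.081 on the cKO arrays and 0.57, 0.41 and 0.62 on the Ctrl arrays, and the lowest of these comes from the array on which miR-92a was at its limit. The ratios of the 4 members that rose to miR-363 were 1.53 to 1.80 higher in cKO (exact permutation p = 0.1 each), but with miR-363 near background they mostly restate each member's own rise. Against its neighbours, the ratio of miR-92a to miR-17 (0.071, exact permutation p = 1) and to miR-20a (-0.11, exact permutation p = 0.9) differed by less than the spread of the arrays, and those to miR-19a and miR-19b were 1.35 and 0.95 higher in cKO with no overlap (exact permutation p = 0.1 each). The ratio of miR-25 to miR-93 differed by 0.84 with no overlap (exact permutation p = 0.1), and that to miR-106b by 0.46 with overlap (exact permutation p = 0.3).

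How firmly the 4 rises stand depends on how the arrays are put on 1 scale, while their direction did not. The log2 differences of all 4 were above 0 in each of the 17 alternative settings that tested them, but many settings could not turn a sign. The trend, block, filters and floor at 1 left these differences as they were. With every cKO array above every Ctrl array, leaving out 1 array could not turn a sign either. Scanner units (constants of 829 to 987.5) and median centring (medians of 0.427 to 0.481) shift arrays by less than the smallest gap between the groups, 1.59-fold for miR-92a. Subtracting a random-sequence median of 0.337 to 0.383 was likewise too small a change to turn a sign. The direction was open only under snoRNA and GAPDH scaling and quantile normalization. miR-92a was not tested in the setting without probes at the array maximum. The 4 differences were lowest when each array was scaled to its snoRNA and GAPDH probes (0.73 to 1.00), a scaling that moved the median of all mouse probes to -0.54. That scaling rests on probes that moved unequally, of which U44R and U48R were above background on 0 of 3 Ctrl arrays. There miR-25 and miR-92b still passed and miR-32 and miR-92a did not, and over all mouse probes 35 rose and 310 fell, in place of 70 and 4. After quantile normalization, where 32 mouse probes rose and 8 fell, miR-92a and miR-92b passed and miR-25 and miR-32 did not (0.93 and 0.79, limma adjusted p = 0.141 and 0.136). With the random-sequence median subtracted, miR-25 and miR-32 passed and miR-92a and miR-92b did not.

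**Figure D4:**
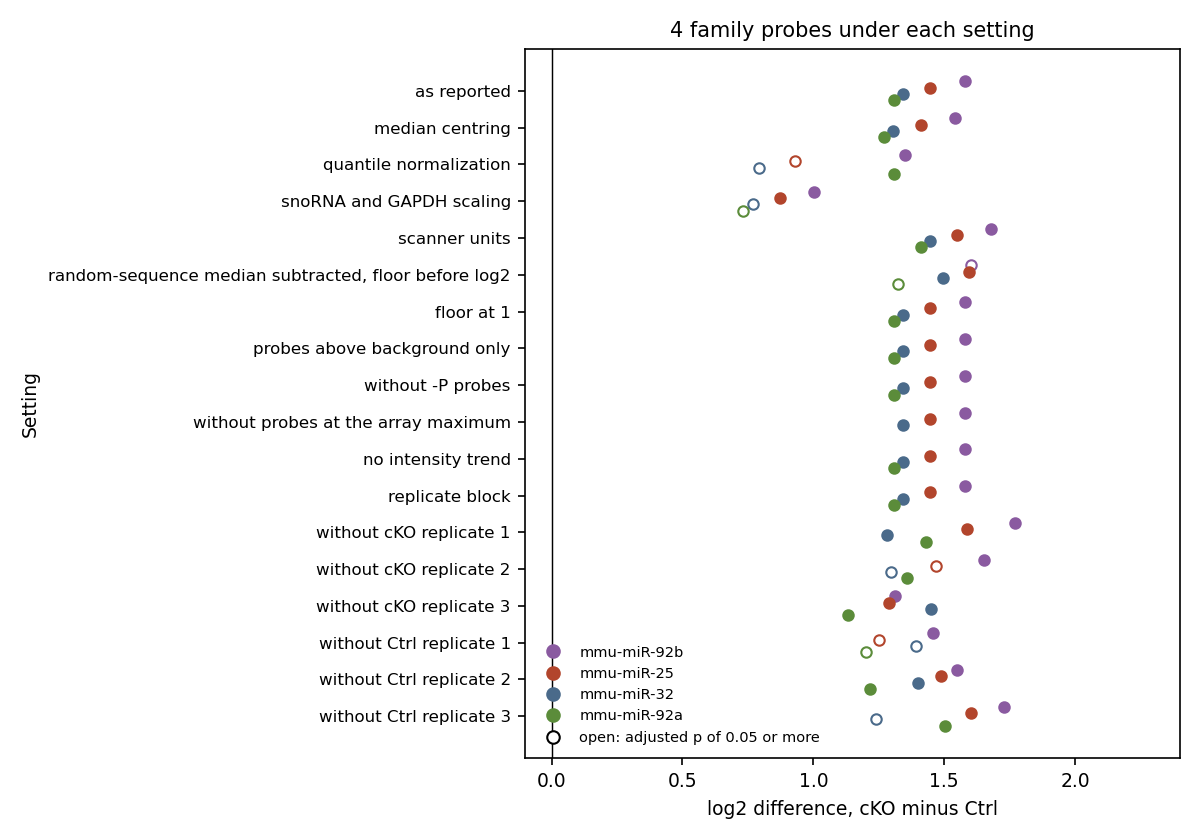
Log2 difference, cKO minus Ctrl, of the 4 family probes that rose, as reported and in 17 alternative settings; open points have a limma adjusted p of 0.05 or more. All points lie above 0, with the lowest at 0.73 (miR-92a, snoRNA and GAPDH scaling).

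Probes outside the family and its clusters with the most similar course over the 6 arrays were ranked by Pearson's r of log2 values among 285 star and plain probes above background on every array, as a description without a test. For miR-32 they were miR-423-5p (r = 0.999), miR-3470a (0.987) and miR-344 (0.975), none of which passed limma's test. For miR-92a they were miR-30d (r = 0.993), miR-467b* (0.993) and miR-466a-3p (0.985), for miR-92b miR-466a-3p (0.995), miR-297a* (0.992) and miR-466e-3p (0.988), and for miR-25 miR-467b* (0.991), miR-29b (0.989) and miR-297a* (0.985). All of these passed.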

How the data were processed

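MicroRNA arrays of 6 mice (3 cKO, 3 Ctrl) were analysed from the deposited table of relative intensity, 1 linear value per probe and array. Each array took 5 µg of RNA, per the labels' protocols. How the authors read images, subtracted background and normalized is not given in the sources used here. For each array a constant (829 to 987.5) was set as the 16-bit limit of 65535 divided by its highest deposited value. At least 99.97% of values were whole steps of 0.25 divided by that constant (tolerance 0.01 on the 16-bit scale). The precision is limited by the number of arrays.

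Deposited intensities were put on the log2 scale with no further normalization and tested with limma 3.58.1 in R 4.3.3 (intensity trend, Benjamini-Hochberg over 1083 mouse probes; human probes in a fit of their own). Ratios within arrays were tested by exact permutation. A probe was above background where it exceeded the 95th percentile of 38 random-sequence probes. Deviations from the group means correlated between mice of the same number (r = 0.10, 0.12 and 0.18 over 1083 probes), each above the limit of 0.1 set for pairing, so a replicate block was run. Mice of different number gave -0.21 to 0.11, the highest for cKO 2 with Ctrl 1, so the evidence for pairing is weak. Named probes are all family members, the human probes of the same names, their plain-named cluster partners and, for each member above background on all 6 arrays, the 3 probes with the highest correlation. Cell type markers and miR-367, which has the same seed, are named besides. The members and lists were chosen with earlier results of these data known. Scaling, floor, filter, trend, block and single arrays were varied. The script was tested on simulated data. Figures were drawn with matplotlib 3.10.9 in Python 3.11.15.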

Additional observations from a re-analysis of the deposited data

How the results depend on the processing

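The 4 family calls became 2 with quantile normalization, where miR-25 and miR-32 were lost, and 2 with the random-sequence median subtracted, where miR-92a and miR-92b were lost (limma adjusted p = 0.0813 and 0.0642). Leaving out 1 array gave 1 to 5 family calls, with 1 without Ctrl replicate 1 and 2 without cKO replicate 2. Over all mouse probes the 74 calls became 40 (quantile normalization), 345 (snoRNA and GAPDH scaling) and 34 to 129 when 1 array was left out (34 for Ctrl replicate 1, 46 for cKO replicate 2, 48 for Ctrl replicate 3 and 129 for cKO replicate 3). The 5 partner calls became 2 with median centring, 3 with the random-sequence median subtracted, 0 with quantile normalization (limma; 5 had an unadjusted p under 0.05), and 0 to 5 when 1 array was left out. The human calls ranged from 0 to 4 when 1 array was left out. Ratios that did not overlap in 14 of 24 pairs did so in 3 of 13 with a floor at 1, in 8 of 12 without probes at the array maximum, and in 14 to 16 of 24 when 1 array was left out. With the replicate block the family had 5 calls, the human probes 4, the partners 5 and all mouse probes 95, of which 73 were among the 74, and the ratio had 1 sign in all 3 pairs for 18 of 24. The block changed no family call other than that of miR-92b-P. The cause of these changes was not tested.

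Signs turned for probes that had not passed, with reported log2 differences from -0.079 (miR-18a) to 0.36 (miR-19b). With snoRNA and GAPDH scaling the log2 difference was -0.37 for miR-25-P, -0.43 for miR-32-P, -0.52 for miR-363-P, -0.51 for miR-92a*, -0.57 for miR-92a-1-P, -0.41 for miR-18b and -0.22 for miR-19b. In that scaling miR-363 (-0.79, limma adjusted p = 0.0386) and miR-92a-1-P (limma adjusted p = 0.0457) were called lower. Quantile normalization gave -0.038 for miR-32-P and -0.0077 for miR-92a-1-P, median centring -0.034 for miR-92a-1-P, and scanner units 0.023 for miR-18a and 0.064 for miR-19a. When 1 array was left out, miR-32-P ranged from -0.019 to 0.34, miR-363-P from -0.013 to 0.16, miR-92a* from -0.17 to 0.22, miR-92a-1-P from -0.084 to 0.079, miR-18a from -0.14 to 0.0041 and miR-19a from -0.22 to 0.16. The human probes ranged from -0.027 to 0.42 for miR-363*, -0.040 to 0.17 for miR-92a-2* and -0.15 to 0.76 for miR-92b*. Signals near background limit what the star, -P, miR-18 and miR-363 probes can show.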
